A study of Mus musculus with 2 samples.

Results

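Matrix metalloproteinases and their tissue inhibitors were followed in single mouse fibroblasts. The genes were taken by name, as Mmp2, Mmp3, Mmp11, Mmp14, Mmp19, Mmp23, Timp1, Timp2 and Timp3. Of these 9 genes, 8 were rows of the table of 33757 features, and Mmp3 was not analysed here. The members were chosen by family, with their count values per plate and Venus gate and across cells known. Among these were the lower counts of Mmp11 and Mmp14 at bright Venus. The values along the Venus axis are therefore given as a description. Where the count of members called along that axis is printed beside the background, nothing is read from it. The rows were identified as ENSMUSG00000031740.9 (Mmp2), ENSMUSG00000000901.18 (Mmp11), ENSMUSG00000000957.12 (Mmp14), ENSMUSG00000025355.8 (Mmp19), ENSMUSG00000029061.3 (Mmp23), ENSMUSG00000001131.12 (Timp1), ENSMUSG00000017466.11 (Timp2) and ENSMUSG00000020044.14 (Timp3).

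The cells were NIH3T3-Rev-VNP1-H2B-iRFP, a line derived from NIH3T3 mouse embryo fibroblasts that carries a Venus reporter of Nr1d1 (a repressor of the circadian clock, also called Rev-erb alpha) together with iRFP, a near-infrared fluorescent protein, on histone H2B. All cells were unsynchronized and untreated, were grown to 95% confluency for about 5 days, and came from this single line. They were sorted singly by Venus and iRFP into 384 wells on each of 2 plates and sequenced by FLASH-seq, which reads whole transcripts of individual cells. Each plate held 4 gates of 96 cells, numbered here from gate 1 (dimmest Venus) to gate 4 (brightest). Plate 1 held the high iRFP sort and plate 2 the low iRFP sort, so plate and iRFP sort cannot be told apart. Each Venus gate also filled the same 6 columns of wells on both plates, so gate and column cannot be told apart.

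After filtering, 762 of 768 cells remained, 383 on plate 1 and 379 on plate 2, with medians of 835930 and 857229 counts per cell. The 8 sums per plate and gate held 76042157 to 86612194 counts. Levels are CPM in these sums, that is, counts scaled to a common library total, and intervals cover counting error only, since reads amplified by PCR without molecular identifiers are not independent molecules. Nothing in the labels says that the plates came from separate cultures, so the spread between plates may be technical. All 10 fibroblast markers exceeded 1 CPM on both plates, and their sum lay between 23641 and 29924 CPM over the 8 sums. Of the other cell types' markers, Epcam, Ptprc and Adipoq each had counts in 1 cell, while Lpl, Krt14, Cd14, Lyz2 and Cdh1 exceeded 1 CPM on both plates.

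Matrix metalloproteinases are zinc proteases that cut collagens and other matrix proteins and are made as inactive zymogens. Tissue inhibitors of metalloproteinases, the Timp proteins, bind the active site and block it. In fibroblasts, Mmp14 sits in the plasma membrane, and a complex of Mmp14 and Timp2 captures the zymogen of Mmp2 at the cell surface, where a free Mmp14 molecule activates it.

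The promoters of 3 genes that were lower in the brightest than in the dimmest gate (Mmp11, Mmp14 and Timp3) and of 1 that was higher (Timp1) are shown, since these are the well-detected members whose levels differed most along the reporter axis. Each stretch runs from 250 bases before to 50 bases after the start of transcription, 5′ to 3′, from RefSeq on GRCm38.p6, a build other than the GRCm39 named in the submitters' processing notes. RefSeq entries matched 6 of the 8 measured genes. Capitals mark GC boxes, GGGCGG or its reverse complement CCGCCC.
Mmp11, chr10:75932453-75932752, minus strand: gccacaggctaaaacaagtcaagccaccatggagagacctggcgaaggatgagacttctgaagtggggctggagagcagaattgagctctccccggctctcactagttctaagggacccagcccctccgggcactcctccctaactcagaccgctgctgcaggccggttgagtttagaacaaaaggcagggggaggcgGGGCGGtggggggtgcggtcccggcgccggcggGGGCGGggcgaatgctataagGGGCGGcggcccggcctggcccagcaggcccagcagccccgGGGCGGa
Mmp14, chr14:54431348-54431647, plus strand: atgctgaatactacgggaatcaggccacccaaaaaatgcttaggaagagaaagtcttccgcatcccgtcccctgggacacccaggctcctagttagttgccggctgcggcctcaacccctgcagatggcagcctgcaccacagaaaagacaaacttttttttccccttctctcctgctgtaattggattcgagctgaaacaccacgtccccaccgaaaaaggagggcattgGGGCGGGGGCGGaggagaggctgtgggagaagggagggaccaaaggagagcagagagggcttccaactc
Timp3, chr10:86300162-86300461, plus strand: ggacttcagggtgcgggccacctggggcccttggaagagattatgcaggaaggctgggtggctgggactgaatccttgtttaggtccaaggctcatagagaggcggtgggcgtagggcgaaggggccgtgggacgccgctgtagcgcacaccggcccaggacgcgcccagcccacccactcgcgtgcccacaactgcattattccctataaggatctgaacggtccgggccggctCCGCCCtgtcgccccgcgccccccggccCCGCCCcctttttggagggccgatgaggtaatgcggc
Timp1, chrX:20869916-20870215, plus strand: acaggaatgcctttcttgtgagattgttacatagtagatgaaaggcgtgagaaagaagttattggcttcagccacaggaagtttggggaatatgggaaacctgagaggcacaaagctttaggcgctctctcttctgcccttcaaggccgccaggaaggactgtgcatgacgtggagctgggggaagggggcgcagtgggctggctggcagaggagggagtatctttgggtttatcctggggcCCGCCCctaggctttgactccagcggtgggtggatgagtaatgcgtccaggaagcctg

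On both strands, 4 further motifs were searched, namely the E-box CACGTG, the D-box TTANGTAA, AGGTCA (a core sequence read by nuclear receptors, Nr1d1 among them) and the AP-1 site TGANTCA. None of these 4 was found in the windows of the 6 genes with an entry. Among 32851 mouse promoters of the same length, 7.15% held the E-box, 2.32% the D-box, 16.3% AGGTCA and 7.81% the AP-1 site. GC boxes numbered 4 in Mmp11, 2 each in Mmp14 and Timp3, and 1 in Timp1, and 35.7% of all promoters held at least 1. The 2 GC boxes of Mmp14 lie end to end, starting 19 and 13 bases before the start of transcription.

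The inhibitor Timp2 and the gelatinase Mmp2 were the most abundant of the 8 transcripts. Divided by exon length, the level of Timp2 was 443 CPM per kb on plate 1 and 423 on plate 2, and that of Mmp2 was 311 and 308. Timp3, an inhibitor that binds to the matrix and also blocks ADAM and ADAMTS proteases, followed at 100.2 and 88.2 CPM per kb, and Mmp14 at 58.4 and 59.9. Timp1, a soluble inhibitor that acts poorly on Mmp14, reached 41.3 and 42.5 CPM per kb. Below these came Mmp11 (stromelysin 3, a protease that furin activates before secretion) at 30.5 and 25.9 CPM per kb and the secreted protease Mmp19 at 3.42 and 4.65. Mmp23, a membrane-anchored protease, was near zero at 0.0626 and 0.0452 CPM per kb. In that order, no neighbours overlapped between plates. Some genes overlap another gene on the opposite strand, Mmp11 with Chchd10, Timp1 with Syn1, Timp3 with Syn3, and Mmp19 with Tmem198b and Gm47093. Timp2 overlaps Cep295nl on the same strand, where counting by strand would not separate them. Whether counting used strand is not given in the sources used here, so reads of such partners could be shared.

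Most members were transcribed in nearly every cell. Mmp2, Timp2 and Timp3 had counts in every cell of both plates, Mmp14 in all cells but 1 of plate 1, Mmp11 in 99.5% and 98.7%, and Timp1 in 97.9% and 98.7%. Mmp19 had counts in 61.6% of cells on plate 1 and 69.7% on plate 2. Mmp23 had counts in 4.70% and 4.22% of cells. Timp2 was the most even, with a 90th percentile 2.30 and 2.38 times the 10th, and Mmp11 the most uneven of the 6 genes detected in nearly every cell, with 8.40 and 11.0 times.

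Among the secreted proteases, Mmp11 carried the steepest gradient along the Venus axis. From gate 1 to gate 4 its level was 103, 121, 68.8 and 43.6 CPM on plate 1 and 85.5, 109, 59.4 and 36.3 CPM on plate 2. Its level was thus highest in gate 2, not in the dimmest gate, on both plates, and gates 3 and 4 lay below gates 1 and 2. Gate 4 held 0.425 times the level of gate 1 on plate 1 and 0.424 times on plate 2. The fitted trend was a log2 change of -0.47 ± 0.02 (SE) per gate step. This SE, here and below, was derived from the F statistic of a model with gate as 4 levels and plate. Departure from a straight line, such as the peak in gate 2, does not enter it. In single cells the median fell from gate 1 to gate 4 as well, from 83.8 to 32.6 CPM on plate 1 and from 61.9 to 28.3 CPM on plate 2. Between gates 1 and 2 the medians moved in different directions, from 83.8 to 79.2 CPM on plate 1 and from 61.9 to 70.2 CPM on plate 2, while the 90th percentile was higher in gate 2 on both plates (188 to 283 CPM and 197 to 243 CPM).

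Mmp2 and Mmp19 varied little along the same axis. Mmp2, the main gelatinase of fibroblasts, stood at 1083, 1128, 1028 and 949 CPM in gates 1 to 4 of plate 1 and at 1037, 1153, 1009 and 962 CPM on plate 2. It too was highest in gate 2 and lowest in gate 4, with a trend of -0.08 ± 0.01 per step. Mmp19 stood at 10.4, 13.2, 11.9 and 12.8 CPM on plate 1 and at 14.4, 15.1, 19.4 and 16.5 CPM on plate 2. Its highest gate differed between the plates, and its trend was 0.07 ± 0.04 per step.

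Of the membrane-bound pair, Mmp14 fell at every step. Its level was 453, 382, 298 and 261 CPM in gates 1 to 4 of plate 1 and 455, 396, 306 and 277 CPM on plate 2, so the plates nearly coincided and no gate of one plate reached the neighbouring gate of the other. The trend was -0.28 ± 0.02 per step. The median cell followed the sums, from 432 to 236 CPM on plate 1 and from 404 to 246 CPM on plate 2. Mmp23 had counts in 2 to 6 cells of each gate, too few for an order of the gates.

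The inhibitors took 3 different courses. Timp3 stood at 1065, 827, 699.6 and 683 CPM in gates 1 to 4 of plate 1 and at 882, 696, 644 and 659 CPM on plate 2. Most of its drop lay between gates 1 and 2, and the trend was -0.19 ± 0.02 per step. From gate 3 to gate 4 the median cell still dropped, from 605 to 513 CPM on plate 1 and from 586 to 491 CPM on plate 2, while single cells reached 7333 CPM in gate 4 of plate 1 and 3475 CPM in gate 4 of plate 2.

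Timp1 moved the other way. It stood at 31.7, 36.7, 33.9 and 44.6 CPM on plate 1 and at 34.6, 33.3, 35.7 and 47.6 CPM on plate 2, so gates 1 to 3 overlapped between plates and only gate 4 stood above all of them. Its trend was 0.12 ± 0.03 per step. Timp2 stood at 1768, 1608, 1666 and 1885 CPM on plate 1 and at 1707, 1554, 1553 and 1788 CPM on plate 2. Its course was a shallow dip in the middle gates, and its linear trend was 0.01 ± 0.01 per step.

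**Figure D1:**
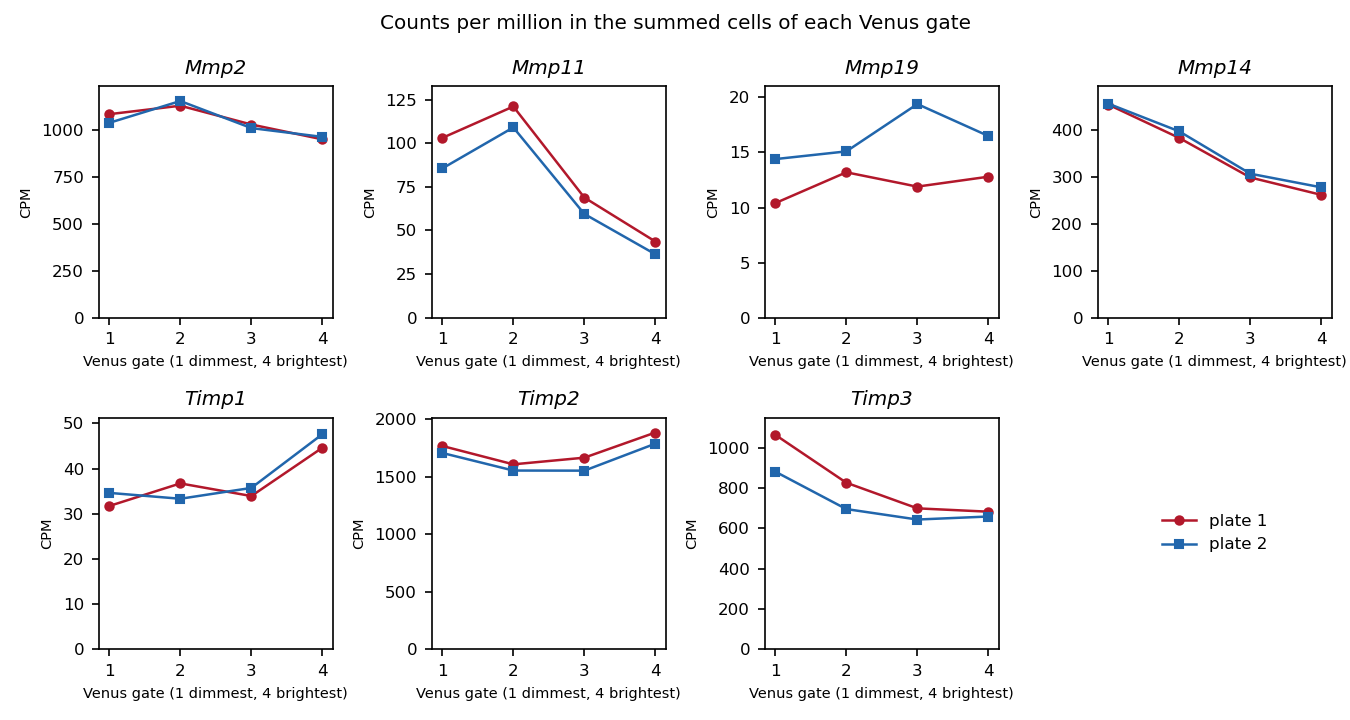
Level in CPM (linear axis from 0) of 7 members against Venus gate, 1 point per sum of 94 to 96 cells, circles for plate 1 and squares for plate 2. Mmp11 peaks in gate 2, Mmp14 falls at each step, Timp3 drops mostly from gate 1 to gate 2, and Timp1 is highest in gate 4.

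**Figure D2:**
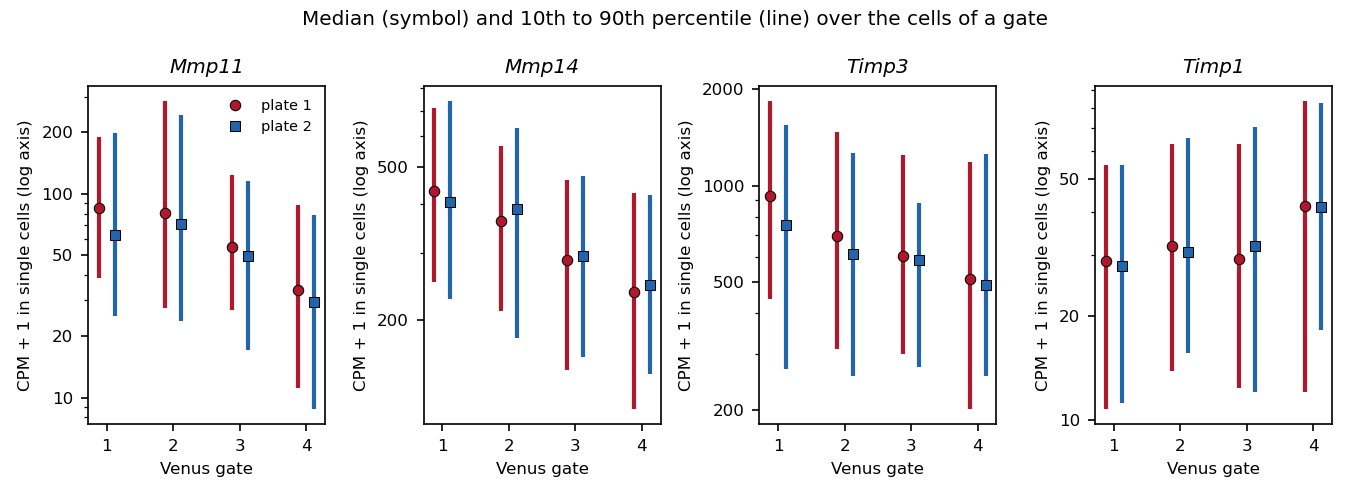
Median (symbol) and 10th to 90th percentile (line) of CPM + 1 over the single cells of each Venus gate on a log axis, for 4 members on both plates. The ranges of cells overlap between all gates, and the Mmp14 median moves from 432 to 236 CPM on plate 1 between gates 1 and 4.

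The balance of inhibitor and protease transcripts differed between gates. Per kb of exon, the ratio of Timp2 to Mmp14 was 5.97, 6.45, 8.56 and 11.0 in gates 1 to 4 of plate 1 and 5.74, 6.01, 7.76 and 9.88 on plate 2. The ratio of Mmp2 to Mmp14, the substrate zymogen to its activator, was 4.23, 5.22, 6.10 and 6.43 on plate 1 and 4.03, 5.15, 5.83 and 6.15 on plate 2. Both ratios increased at every step on both plates, as did Timp1 to Mmp14, and all of these divide by Mmp14, which itself fell at every step. The ratio of Timp2 to Mmp2 was 1.41, 1.23, 1.40 and 1.72 on plate 1 and 1.43, 1.17, 1.33 and 1.61 on plate 2. Timp3 to Mmp14 was also lowest in gate 2, at 1.59 and 1.29. Mmp11 to Mmp14 was highest in gate 2, at 0.683 and 0.590, and lowest in gate 4, at 0.358 and 0.281. Summed over the measured members, the ratio of inhibitors to proteases was lowest in gate 2, at 1.25 and 1.15, and highest in gate 4, at 1.79 and 1.70. Timp2 and Mmp2 were the most abundant members, and the summed ratio lay close to that of Timp2 to Mmp2 in every gate. These are ratios of RNA, and protein was not analysed here.

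Across all genes, 15.4% (2843 of 18430) passed an adjusted p of 0.05 for the Venus trend in edgeR, 6.78% higher and 8.64% lower toward bright Venus. All 8 measured members passed the filter on low counts, and 5 of them were past that threshold, Mmp2, Mmp11, Mmp14 and Timp3 lower and Timp1 higher. The members' median trend was -0.03 per step, against 5.14e-04 over all genes tested. The choice of members used the same contrast, so the count only describes them. With gate fitted as a linear number instead of 4 levels, 10.1% of genes and 3 members were called, without Mmp2 and Timp1. The Nr1d1 transcript itself had a trend of 1.38 ± 0.02 per step, and Arntl, which Nr1d1 represses, -0.72 ± 0.03.

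The trend on each plate comes from the same gate values, which were known when the members were chosen, so its difference between plates is also a description. For Mmp11 the trend was -0.48 per step on plate 1 and -0.47 on plate 2, for Mmp14 -0.30 and -0.26, for Timp3 -0.24 and -0.15, and for Timp1 0.11 and 0.14. The largest difference among the 7 abundant members, plate 2 minus plate 1, was 0.10 for Timp3, with a 95% interval from -0.04 to 0.23. The interval for Mmp14 ran from -0.05 to 0.13 and that for Mmp11 from -0.46 to 0.48. These intervals come from a straight line per plate and count departures from the line as error. Mmp11 peaked in gate 2 on both plates, so its wide interval does not measure disagreement between plates alone. Gate by gate, the log2 ratio of plate 1 to plate 2 for Mmp11 lay between 0.16 and 0.26. Among all 18430 genes 0 were called (0%), 638 (3.46%) had an unadjusted p under 0.05, and DESeq2 called 0.

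Other genes of matrix proteolysis were read from 8 lists of 89 genes, of which 64 were in the table and 45 were tested. Of those 45, 3 were higher and 12 lower toward bright Venus, 33.3% against the 15.4% of all genes. The lists were chosen with earlier results of these data known. This share and the p-values of list genes along the Venus axis are therefore given as a description. With library totals in place of TMM scaling the split was 6 higher and 9 lower. The lists' median trend was -0.05 per step.

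ADAM and ADAMTS proteases are relatives of matrix metalloproteinases that shed membrane proteins and cut proteoglycans. They had 7 calls toward lower and 0 toward higher values in the main edgeR fit, and 5 lower and 2 higher with library totals. Higher calls also numbered 3 in DESeq2, 3 in limma on mean CPM, 2 with no filter on low counts, 2 in thinned cells and 1 with DESeq2 size factors. They numbered 0 with plate left out, with gate as a linear number and with a stricter cell filter. Lower calls were 5 to 7 in every setting. Of 10 ADAMTS genes tested, 4 were lower, led by the aggrecanase Adamts4 at -0.88 ± 0.09 per step (edgeR adjusted p = 0.00214). Its level was 11.0, 4.75, 2.50 and 1.23 CPM in gates 1 to 4 of plate 1 and 7.99, 6.61, 3.68 and 2.02 CPM on plate 2, a fall at every step on both plates. Adamts7 (-0.22), Adamts2 (-0.19, a procollagen N-proteinase) and Adamts10 (-0.13) were the other three. Of 9 ADAM genes, 3 were lower, Adam19 at -0.49 ± 0.06 (edgeR adjusted p = 0.00258), Adam15 at -0.12 and the sheddase Adam17 at -0.09.

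The plasminogen activation list went the other way. Plat, tissue plasminogen activator, was higher toward bright Venus at 0.22 ± 0.03 per step (edgeR adjusted p = 0.00416) and Plaur, the urokinase receptor, at 0.18 ± 0.03 (edgeR adjusted p = 0.0158), 2 of 5 tested. Bmp1, the procollagen C-proteinase, was lower at -0.23 and its enhancer Pcolce at -0.07, 2 of 3 tested. Of the zymogen convertases 1 of 3 was called, Pcsk4 at 0.36, and Furin, the activator of Mmp11 and Mmp14, was not called at 0.06 ± 0.02 (edgeR adjusted p = 0.0755). Lrp1, an endocytic receptor that clears metalloproteinases, was lower at -0.11, 1 of 7 on its list, and the membrane inhibitor Reck was not called at -0.07 ± 0.03 (edgeR adjusted p = 0.234). Of 4 further genes of the metalloproteinase family tested, Mmp9, Mmp16, Mmp24 and Mmp28, 0 were called in edgeR or in DESeq2, and 2 (Mmp9 and Mmp24, both under 1 CPM in every sum) had an unadjusted edgeR p under 0.05. From the cathepsin list Cst3 (-0.12) and Ctsb (-0.08) were lower, 2 of 4 tested. Fibroblast markers moved with the gates too, with 9 of 10 called, 6 lower (Col1a1, Col1a2, Col3a1, Thy1, Fn1 and Lox) and 3 higher (Vim, S100a4 and Sparc). Of the other cell types' markers, Lyz2 (0.22 per step, edgeR adjusted p = 0.0276) and Lpl (0.22 per step, edgeR adjusted p = 0.0193) were higher toward bright Venus. Over the 8 sums, the macrophage and leukocyte markers summed to 21.1 to 31.6 CPM, with 2 of 7 over 1 CPM, and the adipocyte markers to 107 to 289 CPM, with Lpl alone over 1 CPM. The part of any of these in the members' gradients was not tested.

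Cell by cell, Mmp2 and Mmp14 rose and fell together more than any other pair of members. Cells were ranked within their Venus gate, so that differences between gates do not enter, and Spearman correlations were taken over the 383 cells of plate 1 and the 379 of plate 2. These are descriptions over cells that share a library and are scaled to a common total. The correlation of Mmp2 with Mmp14 was 0.672 on plate 1 and 0.603 on plate 2, and it was positive in all 4 gates of both plates, from 0.466 to 0.741. Over the 21 pairs of the 7 well-detected members the median was 0.134 and 0.130.

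Mmp14 was also correlated with the inhibitors Timp2 (0.300 and 0.330) and Timp3 (0.292 and 0.332). Mmp2 was correlated with Timp3 at 0.258 and 0.300, and with Timp2 only at 0.0587 and 0.136. Among the 3 genes of the activation complex, the pair of Mmp2 and Timp2 thus had the lowest values. Timp1 stood apart, with negative correlations to Mmp2 (-0.139 and -0.253), Mmp11 (-0.169 and -0.155) and Mmp14 (-0.0944 and -0.183) and a positive one to Timp2 (0.254 and 0.170). Mmp11 and Mmp14, which both fell along the Venus axis, were correlated at 0.301 and 0.401 over all cells of a plate but at 0.134 and 0.265 within gates.

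**Figure D3:**
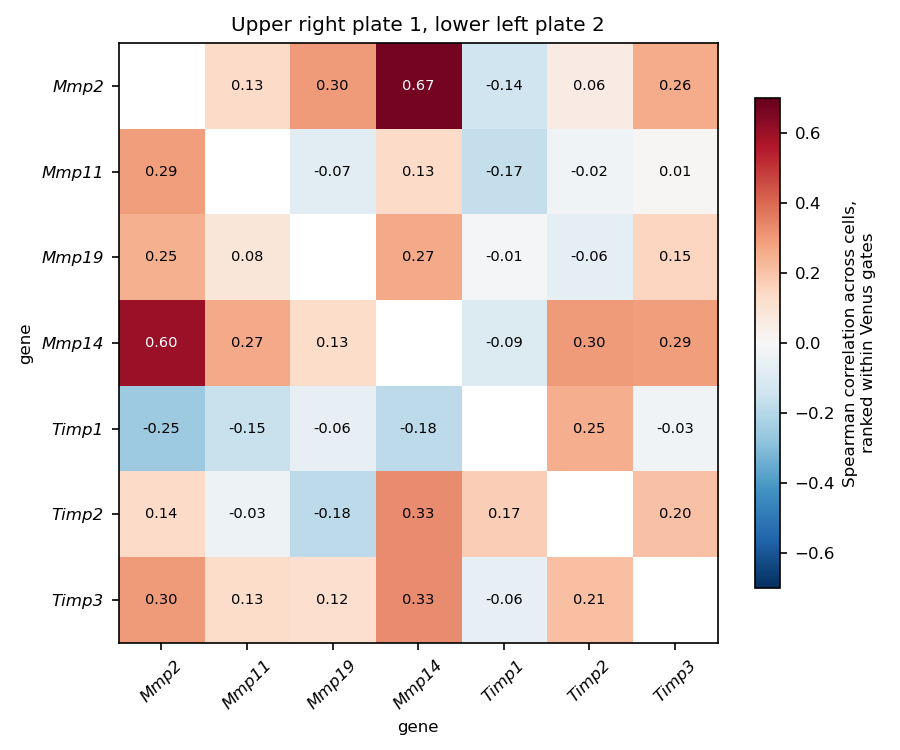
Spearman correlations between 7 members across single cells ranked within Venus gates, plate 1 above the diagonal and plate 2 below, red for positive and blue for negative. The Mmp2 and Mmp14 pair has the highest value on both plates, 0.672 and 0.603, and the Timp1 row is mostly negative.

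Within a gate, the Venus signal of a cell carried little of these gradients. Over all cells of a plate, Venus fluorescence was correlated with Mmp14 at -0.444 and -0.407 and with Mmp11 at -0.414 and -0.367. Within gates the same values were -0.0717 and -0.0495 for Mmp14 and -0.0287 and -0.0433 for Mmp11. The part of the narrower Venus range within a gate was not tested.

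The clock output gene Dbp, a transcription factor that oscillates with the clock, gave opposite signs for Mmp14 on these scales. Over all cells the correlation of Mmp14 with Dbp was -0.0610 on plate 1 and -0.0978 on plate 2, and within gates it was 0.324 and 0.291. Dbp had the highest within-gate values for Mmp14 among 12 clock and reporter genes. Of these 12, 7 were negative over all cells and positive within gates on both plates, among them Nr1d1 (-0.355 and -0.308 over all cells, 0.0816 and 0.178 within gates). Within gates 3 were negative on both plates, Per2 (-0.111 and -0.0954), Cry1 (-0.0630 and -0.102) and Nfil3 (-0.210 and -0.0864). Mmp2 and Dbp were positively correlated both within gates (0.325 and 0.229) and over all cells (0.185 and 0.0832). For Timp1 and Dbp the within-gate values were negative, -0.170 and -0.161.

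Cell cycle genes moved both with the Venus gates and with the members. Toward bright Venus, 13 of 43 S phase genes were higher and 0 lower, and 7 of 54 G2/M genes were higher and 2 lower, against 6.78% and 8.64% of all genes in edgeR. A score summing the ranks of 54 G2/M genes was correlated within gates with Mmp2 at -0.496 and -0.522 and with Mmp14 at -0.383 and -0.474. Mmp11 (-0.171 and -0.305), Mmp19 (-0.212 and -0.161), Timp3 (-0.175 and -0.305) and Timp2 (-0.0692 and -0.166) were also negative, and Timp1 was positive at 0.148 and 0.161. The mitochondrial share of counts moved with the same genes, at 0.300 and 0.294 for Mmp2, 0.254 and 0.275 for Mmp14 and -0.135 and -0.216 for Timp1. The part of either in the correlations between members, or of the cell cycle genes in the members' gradients along the gates, was not tested.

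**Figure D4:**
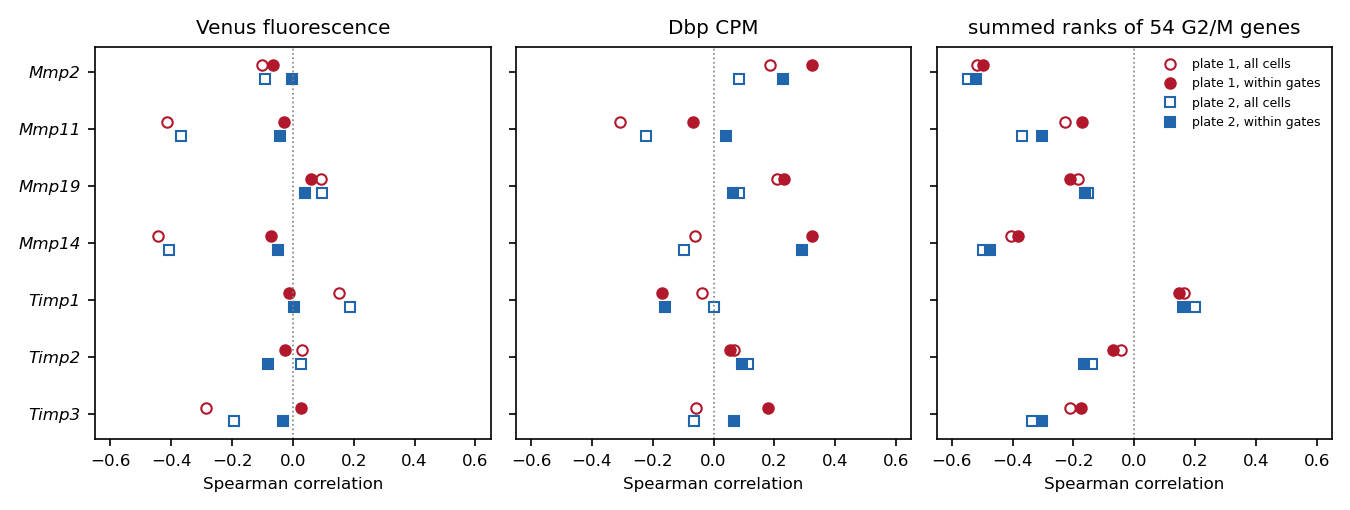
Spearman correlation of 7 members with Venus fluorescence, with the clock output gene Dbp and with the summed ranks of 54 G2/M genes, open symbols over all cells of a plate and filled symbols for cells ranked within Venus gates. For Mmp14 the Dbp values change from -0.0610 and -0.0978 over all cells to 0.324 and 0.291 within gates, while the G2/M values stay negative on both scales.

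The genes most like each member were taken from 9262 candidates by the mean within-gate correlation over both plates. For Mmp14 these were Itm2b (0.651, a membrane protein), Npc2 (0.584, a lysosomal cholesterol carrier) and Gsn (0.575, the actin-severing gelsolin), and the lowest was Eif5a (-0.597, a translation factor). For Mmp2 they were again Itm2b (0.636), then the transcription factor Ebf1 (0.612) and Cst3 (0.594, cystatin C), with Eif5a lowest (-0.653). Among these candidates, Mmp2 and Mmp14 thus had the same first and the same lowest gene. The pair itself had a mean correlation of 0.637, so the shared genes are not a separate result.

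Timp3 was most like the collagen gene Col1a2 (0.427), the procollagen enhancer Pcolce (0.424) and Camk2d (0.383), with Hmga1 lowest (-0.383). Mmp19 was most like Matn2 (0.497, a matrix adaptor protein), Ank (0.475) and Slc25a17 (0.466), with the asparagine synthetase Asns lowest (-0.451). Timp2 was most like Slurp1 (0.480), Clba1 (0.471) and Ugdh (0.469), an enzyme that makes a precursor of hyaluronan, with Nap1l1 lowest (-0.353). Ugdh was also second for Timp1 (0.327), after Ly6a (0.333) and before Anxa8 (0.311), with Naca lowest (-0.289). For Mmp11 the leading genes were Zfas1 (0.403), Gadd45a (0.349) and Gdpd1 (0.326), with S100a10 lowest (-0.374).

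Levels by iRFP and by cell size gave contrasts that the choice of members had not used, though they regroup the counts of the same cells. Cells of each gate were split at the gate's median iRFP fluorescence, which gave 8 pairs of sums. The iRFP transcript was higher in the brighter cells of 8 of 8 pairs. For Mmp19 the dimmer cells had 11.1 to 22.1 CPM (median 15.7) and the brighter cells 8.41 to 18.9 CPM (median 10.7). The ranges overlapped, the brighter cells were lower in 7 of 8 pairs, and the log2 difference was -0.47 with a 95% interval from -0.78 to -0.15 (edgeR adjusted p = 0.850 over all genes). It therefore did not pass the threshold.

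None of the other 6 members tested passed either, with edgeR adjusted p from 0.850 to 1.000 over the 7. Mmp19 alone of the 7 had an unadjusted p under 0.05, and DESeq2 called 0 of them. The interval for Mmp14 was -0.16 to 0.08, that for Timp2 -0.07 to 0.12 and that for Mmp11 -0.11 to 0.32. Among all 14862 genes 0 were called (0%), 833 (5.60%) had an unadjusted p under 0.05, and DESeq2 called 14 (0.0942%).

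A split at the median forward scatter, a measure that increases with cell size, was made in the same way. For Timp1 the cells of lower scatter had 30.6 to 45.9 CPM (median 33.4) and those of higher scatter 30.9 to 52.6 CPM (median 38.6). The higher-scatter cells were above in 7 of 8 pairs, and the log2 difference was 0.19 with an interval from 0.03 to 0.36 (edgeR adjusted p = 0.530). The 7 members tested had edgeR adjusted p from 0.530 to 0.991, so none passed. Timp1 alone of the 7 had an unadjusted p under 0.05, and DESeq2 called 0 of them. The interval for Mmp14 was -0.08 to 0.08 and that for Mmp2 -0.26 to 0.07. Among all 14835 genes 0 were called (0%), 1219 (8.22%) had an unadjusted p under 0.05, and DESeq2 called 64 (0.431%). In this split the median log2 difference was 0.40 over 43 S phase genes and 0.56 over 54 G2/M genes, with 0 called in edgeR. Median forward scatter was highest in gate 4 on both plates, the gate where Timp1 was highest. The part of cell cycle genes or scatter in the Timp1 values was not tested.

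**Figure D5:**
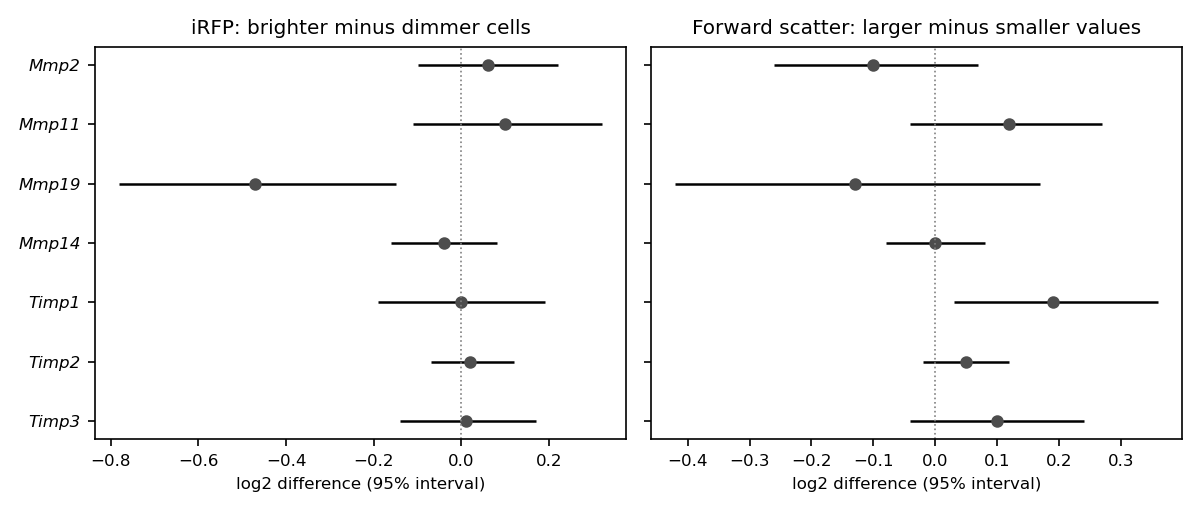
Log2 difference between the brighter and dimmer cells by iRFP (left) and between cells of higher and lower forward scatter (right) for 7 members, points for edgeR estimates over 8 pairs of sums and lines for 95% intervals. Mmp19 lies at -0.47 on the left and Timp1 at 0.19 on the right, and neither passed the adjusted threshold.

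Between the plates, Mmp19 and Mmp11 differed most among the abundant members. Mmp19 was 12.1 CPM on plate 1 and 16.4 CPM on plate 2, a log2 ratio of -0.44 (95% counting interval -0.50 to -0.38). It was lower on plate 1 in 4 of 4 gates, where the log2 ratio ran from -0.70 to -0.19, wider than the counting interval. Mmp11 had a log2 ratio of 0.24 and Timp3 of 0.18, both higher on plate 1 in every gate, and the other abundant members lay between -0.04 and 0.07. The median absolute log2 ratio over 12107 genes of at least 1 CPM was 0.0932, and 2.50% of them differed by more than Mmp19. With 1 plate per iRFP sort there is no test of this difference. After TMM scaling the ratios of Mmp14 and Timp1 changed sign, from -0.04 each to 0.03 and 0.02.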

How the data were processed

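Both plates were 384-well FLASH-seq plates of 1 reporter line. The deposited table holds raw counts per gene and cell. STAR, HTSeq and GRCm39 are named in the submitters' processing notes. The deposited sorting record holds fluorescence and scatter intensity per cell, in arbitrary units per the file headers. Here, cells with at least 1000 genes, at least 0.1 of the plate's median total and at most 25% mitochondrial counts were kept and summed per plate and gate. No doublet caller was run, since wells were sorted with single cells per the labels. Cells were identified by plate and well. Trends came from edgeR 4.0.16 in R 4.3.3 (quasi-likelihood test, TMM, Benjamini-Hochberg adjustment over all genes, threshold 0.05) with gate and plate as terms. Sums of the same plate deviated together with correlations of 0.0293 to 0.0729, and plate was kept as the block because it is a shared plate. The contrast weighted outer gates by 3 and inner gates by 1, divided by 10. Trends of 1 plate alone used log2 CPM with a prior count of 2. DESeq2 1.42.0 and limma 3.58.1 served as alternatives, with other scalings, filters, cells thinned to 400000 counts (753 cells) and single plates. The main edgeR fits of the trend, its plate difference and the iRFP and scatter splits were tested on simulated data, and the alternatives were not. A simulated trend of 0.15 per step was recovered in 65% of changed genes and a plate difference of 0.35 in 60%. For a log2 difference of 0.5 the share was 95% in the iRFP split and 92% in the scatter split. Changed genes were drawn from those averaging at least 10 CPM, 100 per simulated size. The share recovered depends on how many genes change, and edgeR called 0 genes in either real split. The simulation therefore does not give the chance of calling a single gene there. Mmp19, at -0.47 in the real iRFP split, had an edgeR adjusted p of 0.850. Exon lengths are unions of GENCODE exons on GRCm38. The members and gene lists were chosen with earlier results of these data known. Named genes were the members, list genes past the threshold (at most 4 per list), and clock and reporter genes. For each member detected in at least 50% of cells, the 3 candidate genes most and the 1 least correlated with it were also named. Furin, Reck and the 4 further metalloproteinase genes were named although not called.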

Additional observations from a re-analysis of the deposited data

How the results depend on the processing

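The Venus trend had 2843 genes called, 1683 with no replicate block (plate left out of the model) and 1858 with an additive linear model, under which 3 members were called in place of 5. The direction of calls moved from 1250 higher and 1593 lower to 1575 and 1152 with library totals and to 1754 and 1302 with limma on mean CPM over cells. No called member's trend changed sign under any alternative run. With the gates as 4 levels, 1 plate alone leaves no residual spread, so those trends were computed as values, and no test with a linear gate term was run on 1 plate.

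The iRFP split called 0 genes in edgeR and 14 in DESeq2. The scatter split called 0 genes in edgeR, 64 in DESeq2, 6 with no filter on low counts and 1 with only the outer parts of each gate compared (outer parts). Without either plate both splits called 0.

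Differences near zero changed sign, and none was called. In the plate difference of trends, Mmp11 and Timp2 went to -0.01 each with library totals. In the iRFP split, outer parts gave -0.07 for Mmp2, 0.02 for Timp1 and -0.09 for Timp3. Thinned cells gave 0.02 for Timp1 and -0.01 for Timp3, no filter 9.22e-04 for Timp1, and no replicate block -0.00325 for Timp3. Without replicate 2 and without replicate 1 the values were -0.05 and 0.16 for Mmp2, -0.13 and 0.06 for Mmp14, 0.03 and -0.03 for Timp1, -0.05 and 0.10 for Timp2, and -0.09 and 0.11 for Timp3. In the scatter split Mmp14 went to -0.01 with library totals, -0.02 with outer parts, -0.04 without replicate 2 and 0.04 without replicate 1.

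Of the measured members 3 were lower on plate 1, and 1 after TMM scaling, where Mmp14 reached 0.03 and Timp1 0.02. The median correlation over member pairs, 0.136, was 0.122 in thinned cells, 0.152 as a Pearson correlation, and 0.130 to 0.134 on 1 plate alone. The cause of these changes was not tested. Counting limits Mmp23, detected in under 5 of every 100 cells.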
